A study of Homo sapiens with 105 samples.

Results

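The 31 genes described here carry out or control the synthesis of sterols and fatty acids, and they were taken by name, as a list, from the 63241 genes counted in Caco-2 cells. The list holds 8 enzymes of the mevalonate pathway, 11 enzymes from squalene to cholesterol, 5 genes of sterol sensing and transport and 7 fatty acid enzymes. All 31 were found in the count table, and all 31 were among the 18775 genes with enough counts to be tested. Caco-2 is a line from a human colon adenocarcinoma that grows as an epithelial sheet. The cells were incubated in medium with membrane vesicles (MVs) of Lacticaseibacillus casei DSM 20011 (LcMV, 150000000000 particles), MVs of Enterococcus faecalis DSM 20478 (EfMV, 7500000000 particles), outer membrane vesicles (OMVs) of Proteus mirabilis DSM 4479 (PmOMV, 6000000000 particles), lipopolysaccharide of P. mirabilis (LPSinc, labelled 0.2 ng per µl) or PBS. In the other arms, Lipofectamine carried RNA from the same vesicles into the cells (LcRNA at 100 ng, EfRNA at 5 ng, PmRNA at 2 ng), or lipopolysaccharide (LPStrans, labelled 1 ng per µl), or the non-targeting AllStars control siRNA at matching amounts (ANC100, ANC5 and ANC2). The study's methods give the lipopolysaccharide doses per ml, so their unit is uncertain. Cells of all 12 arms were collected after 10 and 24 h, and those of LcMV, LcRNA, ANC100 and PBS also after 48 h. All arms used unmodified cells of this 1 line, which had been seeded in plates and given fresh medium with the treatment a day later, so time of treatment and time in culture were the same variable.

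Each of the 28 groups had 3 or 4 libraries, with replicate numbers from 2 to 5. Of the 39 libraries sequenced in lanes 2 to 4 of 1 flow cell, 12 were nearest in expression to other libraries of their own labelled time, against 66 of the 66 libraries of the other lanes. Setting these 39 aside had been chosen beforehand, with earlier results of these data known. The genes and the time classes of this comparison came from the 66 libraries alone, which favours those 66. The 66 that remained (32 at 10 h, 26 at 24 h and 8 at 48 h) left 2 libraries in 20 groups, 3 in 6 groups and 4 in 2 groups. Where putting the 39 back ended a call, the value with all libraries is given beside it or as a count of calls. Total counts of the 66 libraries ran from 632659 to 8558755, with a median of 5563438. The labelled cell type was borne out, since EPCAM, KRT8, KRT18, VIL1, CDH1 and CDX2, genes of intestinal epithelium, were counted in all 66 libraries, whereas the blood cell gene PTPRC had 2 reads and the fibroblast gene DCN had 7 over all 66 libraries together. The fibroblast gene COL1A1 (median 33.2 CPM) was counted in all 66 libraries, as were 3 further markers of fibroblasts, monocytes and endothelium (medians of 4.95 to 5.99 CPM).

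Cells build cholesterol from acetyl-CoA through the mevalonate pathway, squalene and a series of sterol intermediates, and they build fatty acids from the same precursor. Both routes are controlled by the sterol regulatory element binding proteins, encoded by SREBF1 and SREBF2, which are held in the endoplasmic reticulum by SCAP and the INSIG proteins when sterols are plentiful. When sterols run low, SCAP carries the precursors to the Golgi, where they are cut, and the released factors enter the nucleus and switch on the synthesis genes. Enterocytes both absorb dietary lipid and make their own.

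The genes spanned a wide range of abundance. Levels are counts scaled to 1e+06 per library (CPM, with TMM scaling), and only where genes are compared with each other are they divided by exon length. Per kb of exon, the stearoyl-CoA desaturase SCD stood highest, at a median of 337 CPM per kb over the 66 libraries. It was followed by the fatty acid synthase FASN at 155 CPM per kb, the ATP citrate lyase ACLY at 99.8 CPM per kb and DHCR7, the last reductase of cholesterol synthesis, at 74.4 CPM per kb. The mevalonate enzyme HMGCS1 stood at 54.0 CPM per kb. The lowest were the desaturase FADS2 at 3.82 CPM per kb and the geranylgeranyl diphosphate synthase GGPS1 at 3.57 CPM per kb. In CPM, GGPS1 ranged from 6.01 to 19.3 and PMVK from 9.40 to 20.8, so these were the members measured with the fewest reads.

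To show the sequence upstream of members that rose together, stretches before the transcription start are printed for 3 of the 4 that rose most from 10 to 24 h. The sequences come from the RefSeq promoter table (build GRCh38.p14), which had entries for 27 of the 31 genes, and only bases outside annotated exons are shown. The window of TM7SF2, the one that rose most, lies within an exon of the neighbouring gene VPS51 and is not shown. INSIG1 is printed from chr7:155297628-155297775 on the plus strand, HMGCS1 from chr5:43313513-43313662 on the minus strand and IDI1 from chr10:1049120-1049369 on the minus strand. Capitals mark CACNCCAC, a short form of the sterol regulatory element, and CCAAT, the box bound by NF-Y, on either strand.
INSIG1: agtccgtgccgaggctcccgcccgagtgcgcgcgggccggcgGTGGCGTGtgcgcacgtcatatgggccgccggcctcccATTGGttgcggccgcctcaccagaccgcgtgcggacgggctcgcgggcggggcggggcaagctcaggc
HMGCS1: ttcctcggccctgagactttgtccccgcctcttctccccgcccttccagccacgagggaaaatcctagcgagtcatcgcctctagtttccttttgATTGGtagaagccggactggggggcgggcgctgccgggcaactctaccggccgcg
IDI1: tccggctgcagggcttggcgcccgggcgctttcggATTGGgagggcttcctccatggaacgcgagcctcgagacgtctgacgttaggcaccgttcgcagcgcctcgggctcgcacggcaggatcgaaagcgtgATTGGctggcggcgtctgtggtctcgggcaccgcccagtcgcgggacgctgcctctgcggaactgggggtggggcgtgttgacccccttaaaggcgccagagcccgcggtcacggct
The INSIG1 stretch holds a CACNCCAC match whose first base lies 208 bases before the start and a CCAAT match 170 bases before it. In HMGCS1 a CCAAT match lies 155 bases before the start, and in IDI1 CCAAT matches lie 215 and 117 bases before it. Over the 250 bases before the start, CCAAT was found in 63.2% of the 38 member windows, against 32% of all 35116 promoters. The Sp1 box GGGCGG was found in 86.8% of the member windows and 42.6% of all promoters. CACNCCAC was found in 15.8% of the member windows, those of 6 of the 27 genes (ACACA, IDI1, INSIG1, SC5D, SCD and SREBF2; for IDI1 in a window other than the one printed), and in 4.87% of all promoters. The longer TCACNCCAC, which contains the shorter one, was found in 2.63% of the member windows, that of SREBF2, and in 0.883% of all promoters. These are matches of letters on both strands and were not tested as binding sites.

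Between 10 and 24 h of treatment, averaged over the 12 arms, 25 of the 31 genes rose, 2 fell and 4 did not pass the test. The rise was small for most of them, with a median log2 fold change of 0.21, and it was largest for TM7SF2, a sterol C14 reductase, and for INSIG1, the protein that retains SCAP in the endoplasmic reticulum. Both genes that fell, ACACA and FASN, catalyse consecutive steps of fatty acid synthesis, and the fall of FASN lay mostly in replicate 2. Over all genes 27.7% rose and 27.2% fell, 54.9% in all, with a median of 0.00. With all libraries 26 members passed with the replicate block and 22 without it. Values are log2 fold changes ± SE from edgeR's quasi-likelihood test with the replicate number as a block, and a gene passed at a Benjamini-Hochberg adjusted p under 0.05 over all 18775 genes.

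TM7SF2 ranged from 39.6 to 70.4 CPM with a median of 57.8 at 10 h, from 65.5 to 122 CPM with a median of 94.0 at 24 h, and from 110.5 to 189 CPM with a median of 146 at 48 h. Neighbouring times overlapped only at their edges, and 10 and 48 h did not overlap. In all 24 pairs of libraries of the same arm and replicate number the 24 h library was the higher one. The log2 fold change of TM7SF2 from 10 to 24 h was 0.68 ± 0.03 (adjusted p = 1.36e-30). Such pairs, here and below, come from replicate numbers 2 and 3 alone. Same-numbered libraries of different arms deviated together from their group means. The pairs, and the libraries behind the p-values, are therefore not independent repeats of the time change. The start of TM7SF2 overlaps VPS51 on the same strand, and VPS51 itself changed by 0.21 on the log2 scale.

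Among the mevalonate enzymes, 7 of 8 rose and none fell, with a median log2 fold change of 0.29. HMGCS1, which makes HMG-CoA, ran from 229 to 383 CPM (median 281) at 10 h and from 317 to 559 CPM (median 410) at 24 h. The 10 and 24 h ranges of HMGCS1 overlapped, but the 24 h library was higher in 24 of 24 pairs, and its log2 fold change was 0.48 ± 0.03 (adjusted p = 2.53e-15). IDI1, which isomerises isopentenyl diphosphate, rose by 0.46 ± 0.04 (adjusted p = 1.49e-12) and the mevalonate diphosphate decarboxylase MVD by 0.39 ± 0.05 (adjusted p = 5.44e-09). GGPS1 rose by 0.30 ± 0.06, the mevalonate kinase MVK by 0.28 ± 0.04, the farnesyl diphosphate synthase FDPS by 0.24 ± 0.04 and ACAT2, a cytosolic acetoacetyl-CoA thiolase, by 0.19 ± 0.04. The phosphomevalonate kinase PMVK did not pass (-0.04 ± 0.05, adjusted p = 0.546). MVK overlaps MMAB, GGPS1 overlaps ARID4B and ACAT2 overlaps TCP1 and SOD2, and no strand setting is named for the counting, so reads of these pairs may be mixed.

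Of the 11 squalene and sterol enzymes 10 rose and none fell, with a median of 0.22. After TM7SF2 the highest were HSD17B7, a 3-ketosterol reductase, and LSS, which closes the sterol ring, both at 0.41 ± 0.04. MSMO1, a C4 methyl sterol oxidase, rose by 0.34 ± 0.04 and FDFT1, the squalene synthase, by 0.34 ± 0.04, the latter in 24 of 24 pairs. Smaller rises were found for NSDHL (0.22 ± 0.04), the squalene epoxidase SQLE (0.21 ± 0.03), the lanosterol demethylase CYP51A1 (0.21 ± 0.04), the desaturase SC5D (0.17 ± 0.04) and the isomerase EBP (0.17 ± 0.04). DHCR7 did not pass (0.04 ± 0.03, adjusted p = 0.272). It was higher at 24 h in 3 of 12 pairs of replicate 2 and in 12 of 12 pairs of replicate 3.

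In the sensing group 4 of 5 rose, with a median of 0.15. INSIG1 ran from 133 to 216 CPM at 10 h and from 212 to 302 CPM at 24 h in replicate 2, and from 66.1 to 97.8 CPM and from 100.4 to 146 CPM in replicate 3. Within each replicate number the INSIG1 times thus overlapped little or not at all, whereas the 10 h libraries of replicate 2 lay above many 24 h libraries of replicate 3. The log2 fold change of INSIG1 was 0.58 ± 0.06 (adjusted p = 2.54e-11), with 24 of 24 pairs higher. SREBF1 and SREBF2, which encode the factors themselves, rose by 0.15 ± 0.02 each, and the sterol carrier STARD4 rose by 0.12 ± 0.04. SCAP, the escort protein, did not pass (-0.01 ± 0.02, adjusted p = 0.781).

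The fatty acid enzymes were mixed, with 4 of 7 higher, 2 lower and a median of 0.06. SCD ran from 1340 to 2013 CPM (median 1496) at 10 h and from 1604 to 2263 CPM (median 1854) at 24 h, and it rose by 0.25 ± 0.02 (adjusted p = 5.82e-14). The SCD ranges overlapped, with 23 of 24 pairs higher. FADS2 and FADS1, which desaturate polyunsaturated fatty acids, rose by 0.20 ± 0.04 and 0.18 ± 0.02, and ACLY by 0.06 ± 0.02 (adjusted p = 0.0436). ACACA, the acetyl-CoA carboxylase, ran from 255 to 357 CPM at 10 h and from 236 to 286 CPM at 24 h. ACACA was lower at 24 h in 24 of 24 pairs, with a log2 fold change of -0.23 ± 0.02 (adjusted p = 1.74e-14). FASN was lower in 20 of 24 pairs, with a log2 fold change of -0.17 ± 0.04 (adjusted p = 0.000175). By replicate number, FASN was lower in 12 of 12 pairs of replicate 2 (median log2 difference -0.33). In replicate 3 it was lower in 8 of 12 pairs (median -0.04). The elongase ELOVL6 did not pass (0.01 ± 0.04, adjusted p = 0.913). FADS1 and FADS2 overlap on opposite strands, so their counts may not be separate.

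**Figure D1:**
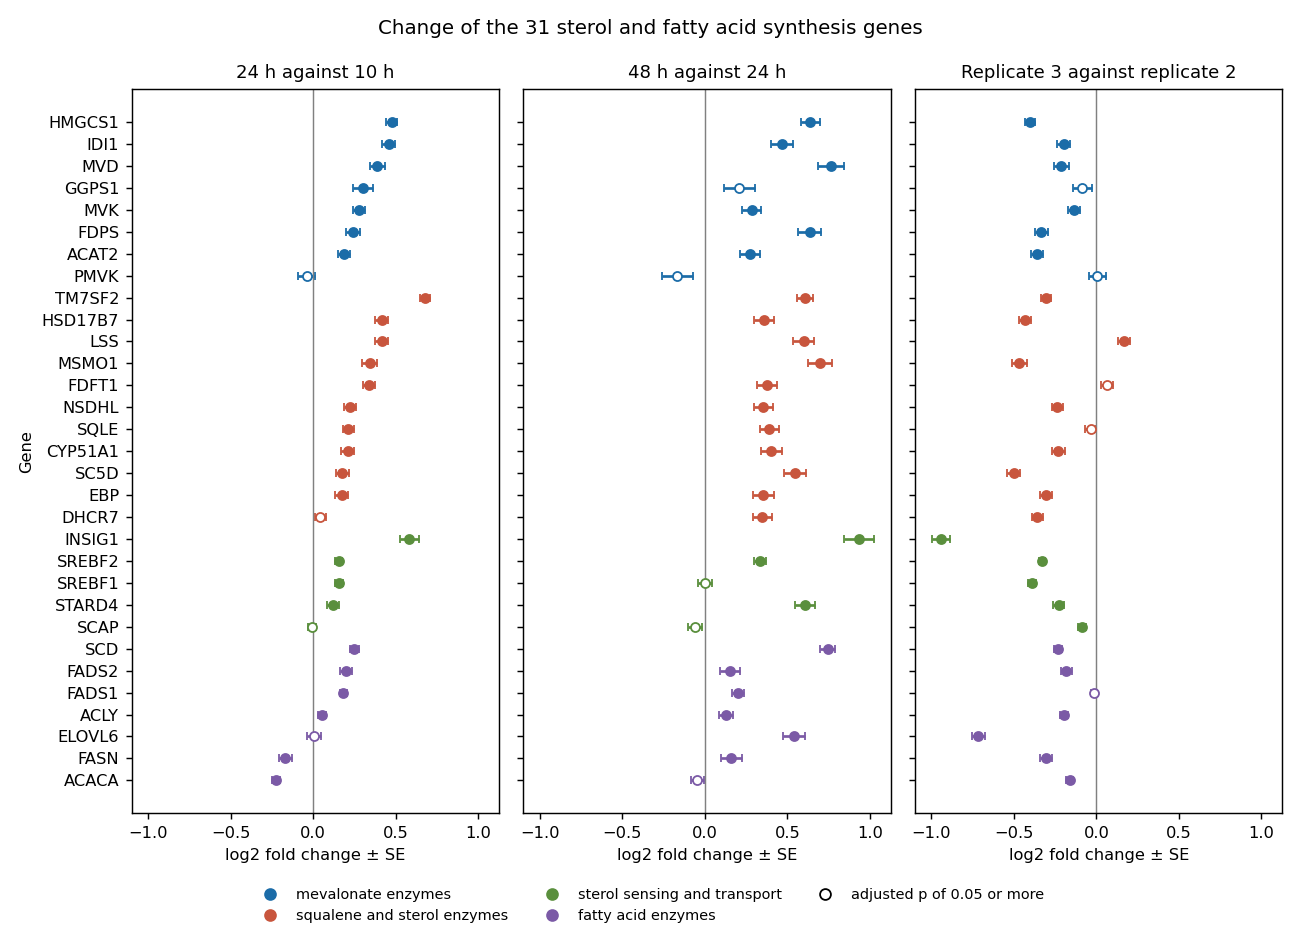
Log2 fold changes of the 31 genes with bars of ± 1 SE for 24 h against 10 h, 48 h against 24 h and replicate 3 against replicate 2, coloured by role, with hollow points where the adjusted p was at or over 0.05. Most points lie to the right of 0 in the panels of time and to the left of 0 in the replicate panel, where INSIG1 lies lowest at -0.94.

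Over the 4 arms collected at 24 and 48 h, 26 of the 31 genes rose and none fell, with a median log2 fold change of 0.36. All 11 squalene and sterol enzymes were among them, with 6 of 8 mevalonate enzymes, 3 of 5 sensing genes and 6 of 7 fatty acid enzymes. INSIG1 rose most, followed by MVD and SCD. Of all genes 20.3% rose and 23.2% fell, 43.5% in all, with a median of 0.00. This comparison rests on 8 libraries at 48 h. With all libraries 4 members passed with the replicate block and 0 without it, and the medians were 0.20 and 0.16.

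INSIG1 ran from 99.95 to 302 CPM (median 165) at 24 h and from 257 to 574 CPM (median 323) at 48 h. The INSIG1 ranges overlapped across replicate numbers, but the 48 h library was higher in 7 of 7 pairs of the same arm and number, and the log2 fold change was 0.94 ± 0.09 (adjusted p = 6.45e-11). SCD ran from 2523 to 3603 CPM (median 3320) at 48 h, above every 24 h library. Its log2 fold change was 0.74 ± 0.04 (adjusted p = 1.11e-23). HMGCS1 ran from 560.2 to 826 CPM (median 650.2) at 48 h, also above every 24 h library, with a log2 fold change of 0.64 ± 0.06 (adjusted p = 5.31e-12). 

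MVD rose by 0.76 ± 0.08, MSMO1 by 0.70 ± 0.07, FDPS by 0.63 ± 0.07, TM7SF2 by 0.61 ± 0.05, STARD4 by 0.61 ± 0.06 and LSS by 0.60 ± 0.07. SC5D and ELOVL6 each rose by 0.54 ± 0.07, and ELOVL6 was higher at 48 h in 7 of 7 pairs after 12 of 24 from 10 to 24 h. SREBF2 rose by 0.33 ± 0.04, and SREBF1 did not pass (-0.00 ± 0.04, adjusted p = 0.997). FASN, lower from 10 to 24 h, was higher from 24 to 48 h (0.16 ± 0.07, adjusted p = 0.0447) and lay at -0.01 in both fits with all libraries. ACACA did not pass (-0.05 ± 0.04, adjusted p = 0.372), nor did GGPS1 (0.21 ± 0.09, adjusted p = 0.065), PMVK (-0.17 ± 0.09, adjusted p = 0.145) or SCAP (-0.06 ± 0.04, adjusted p = 0.27). The other members past the test were IDI1 (0.47), CYP51A1 (0.40), SQLE (0.39), FDFT1 (0.38), HSD17B7 (0.36), EBP (0.35), NSDHL (0.35), DHCR7 (0.35), MVK (0.28), ACAT2 (0.27), FADS1 (0.20), FADS2 (0.15) and ACLY (0.13). The 24 h libraries enter both comparisons of time, so the values of these comparisons are not independent.

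**Figure D2:**
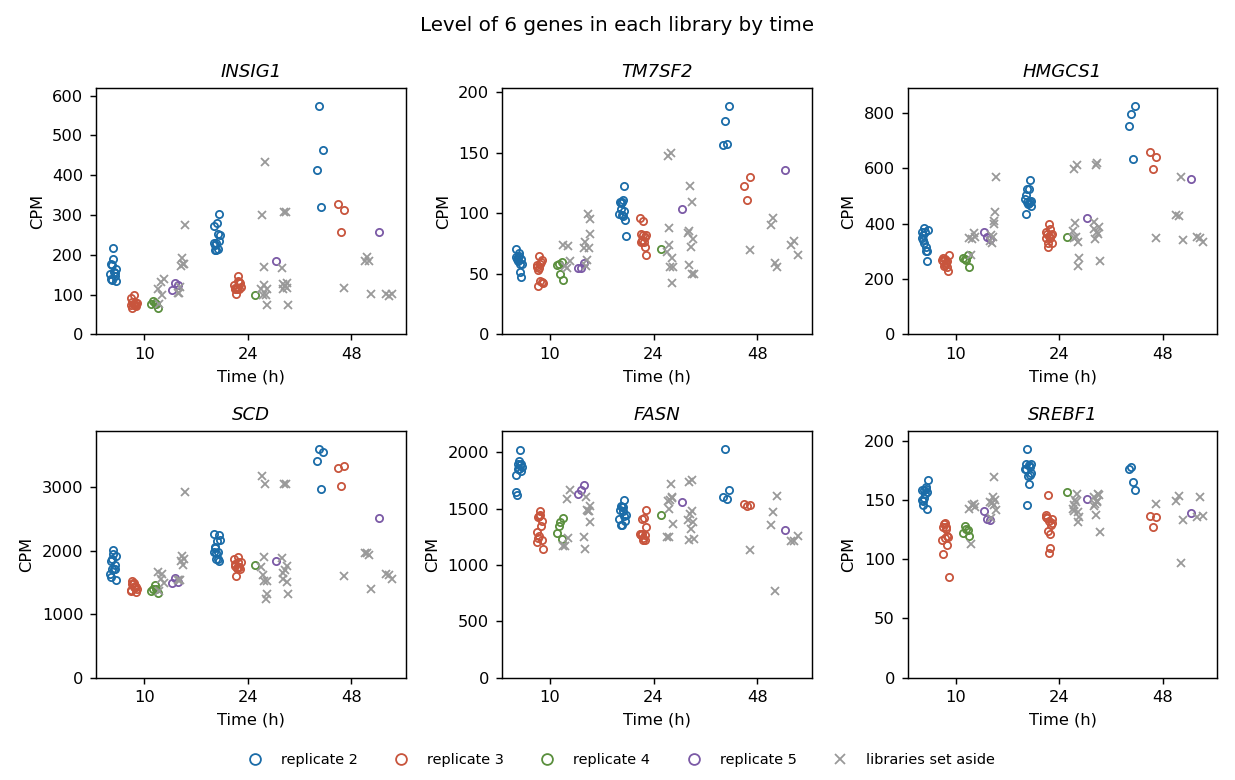
CPM of INSIG1, TM7SF2, HMGCS1, SCD, FASN and SREBF1 in each library by time in h, with colours for the replicate number and grey crosses for the libraries set aside, on linear axes from 0. The 48 h libraries of SCD lie between 2523 and 3603 CPM, above all 24 h libraries used, and replicate 2 of INSIG1 lies above replicate 3 at 10 and 24 h.

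The rise with time was also present in cells given no bacterial material. In PBS alone 13 members rose from 10 to 24 h and none fell (7.15% of all genes passed), namely INSIG1 (0.89), IDI1 (0.79), MVD (0.73), LSS (0.70), MSMO1 (0.68), TM7SF2 (0.66), HMGCS1 (0.66), FDFT1 (0.64), FDPS (0.60), CYP51A1 (0.49), HSD17B7 (0.45), SCD (0.35) and FADS1 (0.28). PBS cells had 5 members higher from 24 to 48 h and none lower (17.8% of all genes). These were TM7SF2 (0.62), SCD (0.58), HMGCS1 (0.45), MSMO1 (0.44) and SREBF2 (0.27). PBS had 2 libraries at each time, of replicates 2 and 3 at 10 and 24 h and of replicates 2 and 5 at 48 h. At 24 h PBS replicate 2 had the highest mean of the 31 genes of all libraries of that time (0.36, centred log2), and PBS replicate 3 stood at -0.05. In the siRNA controls 19 members rose from 10 to 24 h and ACACA fell (30.7% of all genes), with TM7SF2 (0.67), INSIG1 (0.57), HSD17B7 (0.43), GGPS1 (0.43), HMGCS1 (0.41), LSS (0.41), MVD (0.39), IDI1 (0.37), MSMO1 (0.33) and SCD (0.31) highest and ACACA at -0.19. In ANC100 21 rose and none fell from 24 to 48 h (15.3% of all genes), with INSIG1 (1.14), MVD (0.88), SCD (0.80), MSMO1 (0.79), HMGCS1 (0.73), FDPS (0.70), STARD4 (0.68), SC5D (0.67), ELOVL6 (0.66) and LSS (0.65) highest. With all libraries put back and the replicate block kept, PBS alone gave 0 members in either step (medians of 0.16 and 0.12), and the siRNA controls gave 16 higher from 10 to 24 h and 0 from 24 to 48 h (medians of 0.22 and 0.27).

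Other lipid genes moved in both directions. Over all genes 27.7% rose and 27.2% fell from 10 to 24 h, and 20.3% and 23.2% from 24 to 48 h. Of 12 further lipid synthesis genes, 6 rose and 3 fell from 10 to 24 h. The highest were ACSS2 (0.38), which makes acetyl-CoA from acetate, ACACB (0.38) and LPIN1 (0.32), and the lowest were FADS3 (-0.34), the malic enzyme ME1 (-0.33) and ELOVL5 (-0.30). Between 24 and 48 h 6 rose and 3 fell, with ACSS2 (1.00), LPIN1 (0.85) and the sterol-related TMEM97 (0.55) highest and ME1 (-0.62), ELOVL1 (-0.30) and GPAM (-0.29) lowest. Of 11 genes that process SREBP precursors or act beside the factors, 5 rose and 3 fell from 10 to 24 h and 3 rose and 2 fell from 24 to 48 h. INSIG2, a relative of INSIG1, rose in both (0.26 and 0.83), as did SP1 (0.12 and 0.12). Also higher in 1 of these comparisons were NFYC (0.11, from 10 to 24 h) and PAQR3 (0.38, from 24 to 48 h). UBE2G2 fell in both (-0.49 and -0.15), the NF-Y subunit gene NFYA (-0.38) and ERLIN1 (-0.09) from 10 to 24 h, and the protease gene MBTPS2 (-0.21) from 24 to 48 h.

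Of 10 tested genes of sterol export and storage, 6 rose and 1 fell from 10 to 24 h. The cholesterol exporter ABCA1 (0.57), the cholesterol esterifying SOAT2 (0.43) and the lysosomal NPC2 (0.27) were highest, and the lipoprotein receptor SCARB1 (-0.17) fell. From 24 to 48 h 5 rose, led by SOAT2 (0.88), ABCA1 (0.46) and the liver X receptor gene NR1H3 (0.39), and LPCAT3 (-0.19) fell. The fatty acid oxidation list also holds genes that are not oxidation enzymes, among them CREB3L3, ANGPTL4 and PLIN2. Of its 11 tested genes 8 rose and 1 fell from 10 to 24 h, with CPT2 (0.43) and CREB3L3 (0.43) among the higher ones and ACADVL (-0.17) lower. From 24 to 48 h 6 rose and none fell, with ANGPTL4 (0.83), PLIN2 (0.63) and CPT1A (0.62) highest. Genes of both the synthesis and the oxidation lists were among those that rose. Over all genes 27.7% rose in the first step and 20.3% in the second, and the lists were not tested as sets.

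Markers of other kinds moved over the same times. Their CPM were taken without TMM scaling. The summed CPM of 7 epithelial genes had a median of 7208 (6713 to 8135) at 10 h, 6375 (4916 to 7346) at 24 h and 4458 (3742 to 5466) at 48 h. KRT8 and KRT18 were the largest parts of this sum, with medians of 3324 and 1359 CPM over the 66 libraries. Of the 6 proliferation genes 1 rose and 3 fell from 10 to 24 h, and 5 fell from 24 to 48 h. Over all genes 27.2% fell in the first step and 23.2% in the second. The summed CPM of 10 genes of other cell types, 5 of them past the filter, was 33.3 to 47.4 at 10 h, 48.7 to 74.9 at 24 h and 81.7 to 97.5 at 48 h, most of it from the collagen gene COL1A1. In such bulk samples fewer cells of a type and less RNA per cell cannot be told apart. The part of these changes in the result for the lipid genes was not tested.

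The genes also differed by replicate number, mostly in 1 direction. Libraries of replicate 3 were lower than those of replicate 2 in 25 of the 31 genes and higher in 1, LSS, with a median log2 fold change of -0.23. Over all genes 31.1% were higher and 31.1% lower, 62.2% in all, with a median of -0.00. The labels do not say what a replicate number stands for, so a culture, a day and a batch cannot be told apart here.

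INSIG1 was lower in replicate 3 in 27 of 27 pairs of the same group, by 0.94 ± 0.05 on the log2 scale (adjusted p = 1.19e-17). At 10 h it ran from 133 to 216 CPM in replicate 2 and from 66.1 to 97.8 CPM in replicate 3, with no overlap. ELOVL6 ran from 28.9 to 39.0 CPM and from 14.4 to 23.5 CPM in the same libraries, again without overlap, and it was lower in 27 of 27 pairs (-0.72 ± 0.04, adjusted p = 1.32e-27). SREBF1 (-0.39 ± 0.02) and SREBF2 (-0.33 ± 0.02) were also lower in 27 of 27 pairs. Further decreases were found for SC5D (-0.50 ± 0.04), MSMO1 (-0.47 ± 0.04), HSD17B7 (-0.43 ± 0.04), HMGCS1 (-0.40 ± 0.03), ACAT2 (-0.36 ± 0.04), DHCR7 (-0.36 ± 0.03) and FDPS (-0.34 ± 0.04). LSS was higher in 22 of 27 pairs (0.17 ± 0.04, adjusted p = 0.000219). GGPS1, SQLE, FADS1, PMVK and FDFT1 did not pass.

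The other genes lower in replicate 3 ranged from FASN (-0.31 ± 0.04) to SCAP (-0.09 ± 0.02). The counts that follow stand beside 31.1% of all genes higher and 31.1% lower. Among the companion lists, 2 of 12 further lipid synthesis genes were higher (ME1, 0.20, and ELOVL5, 0.14) and 8 lower, the lowest being ACACB (-0.57), PCYT2 (-0.52) and ACSL3 (-0.45). In the processing list 4 were higher, among them INSIG2 (0.31) and NFYA (0.14), and MBTPS2 (-0.29), ERLIN1 (-0.23) and PAQR3 (-0.19) were lower. In sterol export and storage NR1H2 (0.09) was higher and 6 were lower, with ABCA1 (-0.89), SOAT2 (-0.76) and NR1H3 (-0.30) the lowest. In the fatty acid oxidation list 3 were higher, CREB3L3 (0.87), PLIN2 (0.22) and CPT1A (0.13), and 6 were lower, led by ACADVL (-0.63), ACADM (-0.36) and CPT2 (-0.33). INSIG1 and INSIG2, both retention factors for SCAP, thus differed in opposite directions between the replicates.

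Fitted within each time, which was done after these values had been seen, replicate 3 was lower than replicate 2 in 27 members and higher in none at 10 h (50% of all genes passed), lower in 23 and higher in 2 at 24 h (52.9%), and lower in 12 and higher in 4 at 48 h (36.5%). The medians of the 31 genes were -0.30, -0.24 and -0.10. INSIG1 differed by -1.03 at 10 h, -0.99 at 24 h and -0.52 at 48 h, and FASN by -0.48, -0.16 and -0.17. In LSS the difference was 0.06, 0.21 and 0.42 at these times, with 473 to 498 CPM in replicate 3 and 325 to 432 CPM in replicate 2 at 48 h. Between 10 and 24 h the replicate difference itself shifted in 8 members (14.5% of all genes passed), upwards in 7 of them, and between 24 and 48 h it shifted upwards in 9 (6.52% of all genes). The 48 h values rest on 4 libraries of replicate 2 and 3 of replicate 3.

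The mean of the 31 genes on a log2 scale, each gene centred on its own mean, differed by time and replicate number. At 10 h it ran from -0.11 to 0.16 in replicate 2 and from -0.43 to -0.27 in replicate 3, and at 24 h from 0.13 to 0.36 and from -0.19 to 0.02. At 48 h it ran from 0.41 to 0.73 in replicate 2 and from 0.40 to 0.52 in replicate 3, and the 1 library of replicate 5 stood at 0.23. Replicates 2 and 3 were therefore apart at 10 and 24 h and overlapped at 48 h, and replicate 2 at 10 h overlapped replicate 3 at 24 h. At 10 h replicate 4 (-0.37 to -0.28) lay within replicate 3, and replicate 5 (-0.08 to -0.02) within replicate 2. At 24 h the 1 library of replicate 4 stood at -0.08 and the 1 of replicate 5 at 0.10.

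Transfection as such left no mark that passed the test. All arms given Lipofectamine were set against all arms in medium at each time, and 0 of 31 members passed by edgeR, DESeq2 or voom at 10, 24 or 48 h, where 0.415%, 0.634% and 0.00533% of all genes did by edgeR. At an unadjusted p under 0.05 there were 0, 4 and 1 members, beside 9.81%, 11.7% and 6.29% of all genes. The lowest p-values at 10 h were those of HMGCS1 (0.09 ± 0.05, adjusted p = 0.513), ELOVL6 (0.10 ± 0.06) and TM7SF2 (0.07 ± 0.05). At 24 h they were those of ELOVL6 (0.18 ± 0.06, adjusted p = 0.168), SREBF1 (0.10 ± 0.04, adjusted p = 0.17) and MVK (-0.12 ± 0.05, adjusted p = 0.3), and ELOVL6 passed (0.19) when the block was fitted within each time. At 48 h they were those of FADS2 (0.24 ± 0.09, adjusted p = 0.573), ACAT2 (0.16 ± 0.09) and SQLE (0.12 ± 0.08). None of the 4 companion lists of lipid genes had a gene past the test at any time.

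Setting the siRNA controls alone against PBS gave 0 of 31 members by edgeR, DESeq2 or voom at each time, with 0%, 0% and 0.282% of all genes past the edgeR test. At an unadjusted p under 0.05 there were 1, 3 and 8 members, beside 7.34%, 6.41% and 11% of all genes. The lowest p-values were those of FADS2 (-0.23 ± 0.11, adjusted p = 0.65), ACAT2 (0.20 ± 0.11) and SCAP (-0.10 ± 0.07) at 10 h, and of IDI1 (-0.28 ± 0.11, adjusted p = 0.7), LSS (-0.26 ± 0.11) and FDPS (-0.27 ± 0.11) at 24 h. At 48 h, ACAT2 (0.37 ± 0.13, adjusted p = 0.21), SQLE (0.34 ± 0.12, adjusted p = 0.23) and FADS2 (0.29 ± 0.12, adjusted p = 0.339) came first, and 28 of 31 values were above 0 with a median of 0.20. Without ANC100 replicate 2 at 48 h the count there was 3, and without PBS replicate 2 it was 1.

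**Figure D3:**
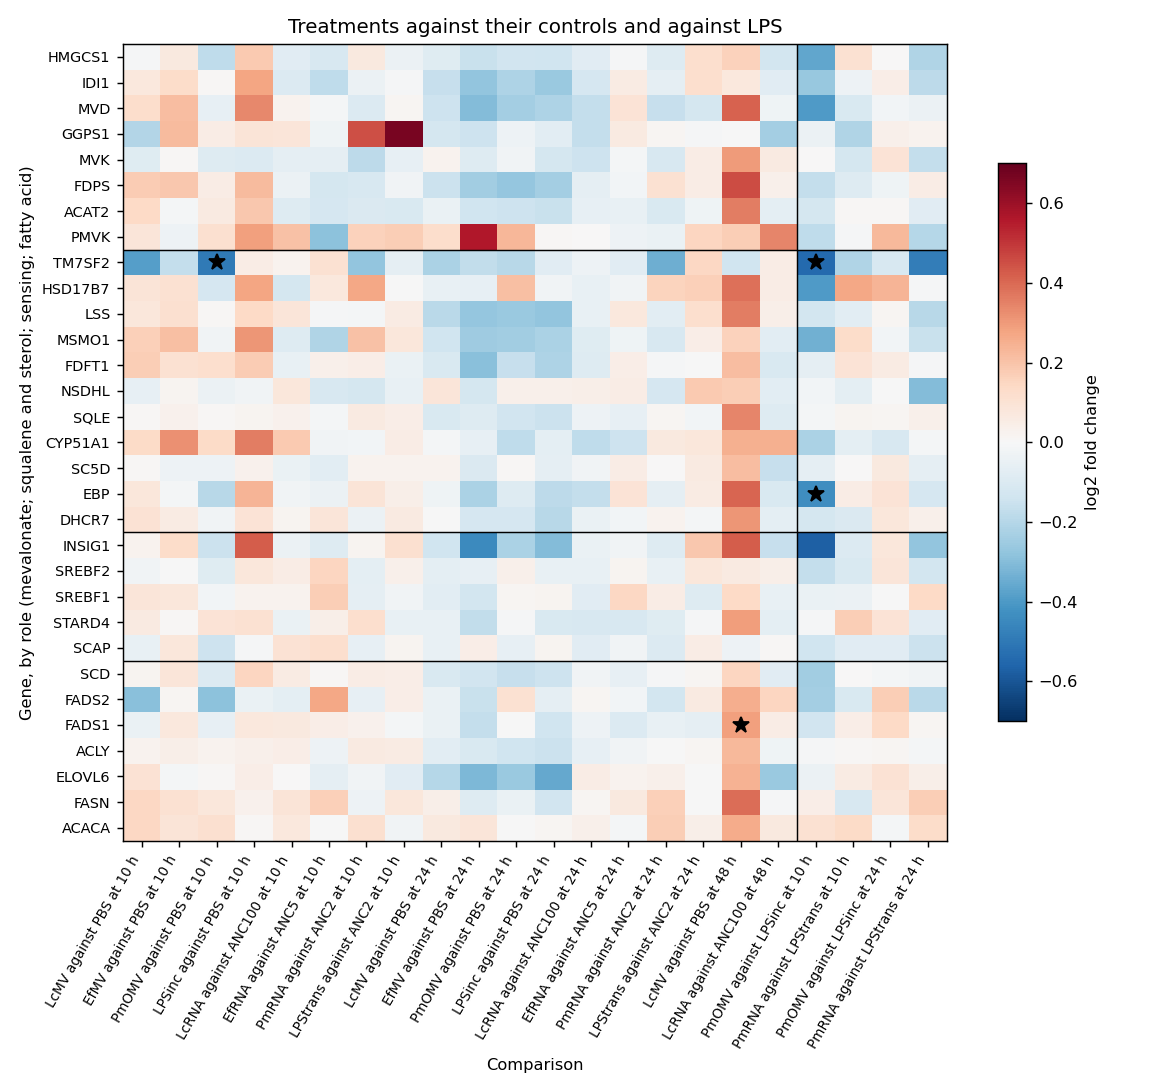
Heat map of log2 fold changes of the 31 genes (vertical axis, grouped by role) in the 18 comparisons of a treatment with its control and the 4 with lipopolysaccharide (horizontal axis), with stars at an adjusted p under 0.05. Stars mark TM7SF2 and EBP in OMVs at 10 h and FADS1 in L. casei MVs at 48 h, and the values run from -0.57 to 0.66.

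The study's main question was how vesicles and their RNA change the cells. Of the 558 tests of a member in the 18 comparisons of a treatment with its control, 2 passed, 1 higher and 1 lower. At an unadjusted p under 0.05 there were 39, which is 6.99% of the tests, against 5.19% over all genes. The median absolute log2 fold change was 0.08. The PBS, ANC100 and ANC2 libraries each serve several of these comparisons, so the values are not independent between them.

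TM7SF2 was the member that fell after P. mirabilis OMVs at 10 h, where 1.06% of all genes passed against PBS. It stood at 47.3, 42.9 and 44.5 CPM in the 3 OMV libraries and at 62.4 and 61.2 CPM in the PBS libraries. The groups did not overlap, and the log2 fold change was -0.49 ± 0.11 (adjusted p = 0.00772). Against lipopolysaccharide in the medium (67.5 and 64.6 CPM) it was lower by 0.54 ± 0.10 on the log2 scale (adjusted p = 0.000392), again without overlap. That second call was absent without the replicate block (adjusted p = 0.405), with all libraries (-0.18) and without lipopolysaccharide replicate 3 (-0.42, adjusted p = 0.0899). The OMV library that was set aside stood at 83.2 CPM, and with all libraries the TM7SF2 values were -0.31 or -0.32 against PBS and did not pass. Without the replicate block the log2 fold change of TM7SF2 against PBS was -0.46 and did not pass (adjusted p = 1). It also did not pass without PBS replicate 3 (-0.30, adjusted p = 0.634) or OMV replicate 2 (-0.44, adjusted p = 0.101). The overlapping gene VPS51 differed by -0.04 against PBS (adjusted p = 0.915).

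TM7SF2 did not pass the test after the other vesicles. After L. casei MVs at 10 h it stood at 51.5, 44.2 and 50.2 CPM (-0.38 ± 0.11, adjusted p = 0.329), and after E. faecalis MVs at 60.7 and 53.1 CPM (-0.17 ± 0.12, adjusted p = 1). At 24 h OMVs gave 94.7 and 81.9 CPM against 122 and 80.8 CPM in PBS, so those groups overlapped (-0.19 ± 0.11, adjusted p = 1). The change of the OMV effect from 10 to 24 h was 0.30 ± 0.16 and did not pass (adjusted p = 0.796). With OMV-RNA at 24 h TM7SF2 stood at 80.8, 65.5 and 70.1 CPM, against 109.5 and 76.1 CPM with ANC2 (-0.34 ± 0.10, adjusted p = 0.378) and 111 and 93.3 CPM with transfected lipopolysaccharide (-0.48 ± 0.11, adjusted p = 0.123). The 3 OMV-RNA libraries lay below both lipopolysaccharide libraries, and 1 of them lay above the lower ANC2 library.

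EBP, the isomerase that acts after the C14 reductases, passed in the comparison of OMVs with lipopolysaccharide at 10 h, where 3.18% of all genes did. It stood at 31.8, 27.9 and 27.0 CPM after OMVs and at 45.7 and 35.6 CPM after lipopolysaccharide. The groups did not overlap, and the log2 fold change was -0.43 ± 0.12 (adjusted p = 0.0242). With all libraries EBP differed by -0.23 without and -0.22 with the replicate block and did not pass (adjusted p = 1 in both). EBP also did not pass without the replicate block (-0.49, adjusted p = 0.605) or when OMV replicate 2 or 3 or lipopolysaccharide replicate 2 or 3 was left out (-0.46 to -0.39, adjusted p = 0.0562 to 0.233). In this comparison 28 of 31 values were below 0, with a median of -0.13, and 11 had an unadjusted p under 0.05, as did 15.5% of all genes. HMGCS1 (-0.36 ± 0.11, adjusted p = 0.0616), HSD17B7 (-0.40 ± 0.13, adjusted p = 0.0661) and INSIG1 (-0.57 ± 0.18, adjusted p = 0.0749) followed. For INSIG1 the OMV libraries of replicates 2 and 3 stood at 133 and 72.1 CPM and the lipopolysaccharide libraries of these numbers at 216 and 97.8 CPM, so the groups overlapped and each pair was lower after OMVs.

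Against PBS the same OMV libraries gave a median of -0.03, and lipopolysaccharide gave 0.10 with 27 of 31 values above 0. In that comparison of lipopolysaccharide with PBS, CYP51A1 (0.36 ± 0.14), INSIG1 (0.42 ± 0.20) and MVD (0.34 ± 0.17) had the lowest p-values, each with an adjusted p of 1. In the comparison of OMVs with PBS, FADS2 (-0.29 ± 0.12, adjusted p = 0.299) and SCAP (-0.14 ± 0.08, adjusted p = 0.535) came after TM7SF2. The 3 comparisons share libraries by construction. OMVs against lipopolysaccharide at 24 h, and OMV-RNA against transfected lipopolysaccharide at 10 and 24 h, gave 0 members, with 0.154%, 0% and 0% of all genes. Over the 4 comparisons 13 of 124 member tests had an unadjusted p under 0.05, or 10.5%, against 8.14% over all genes.

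**Figure D4:**
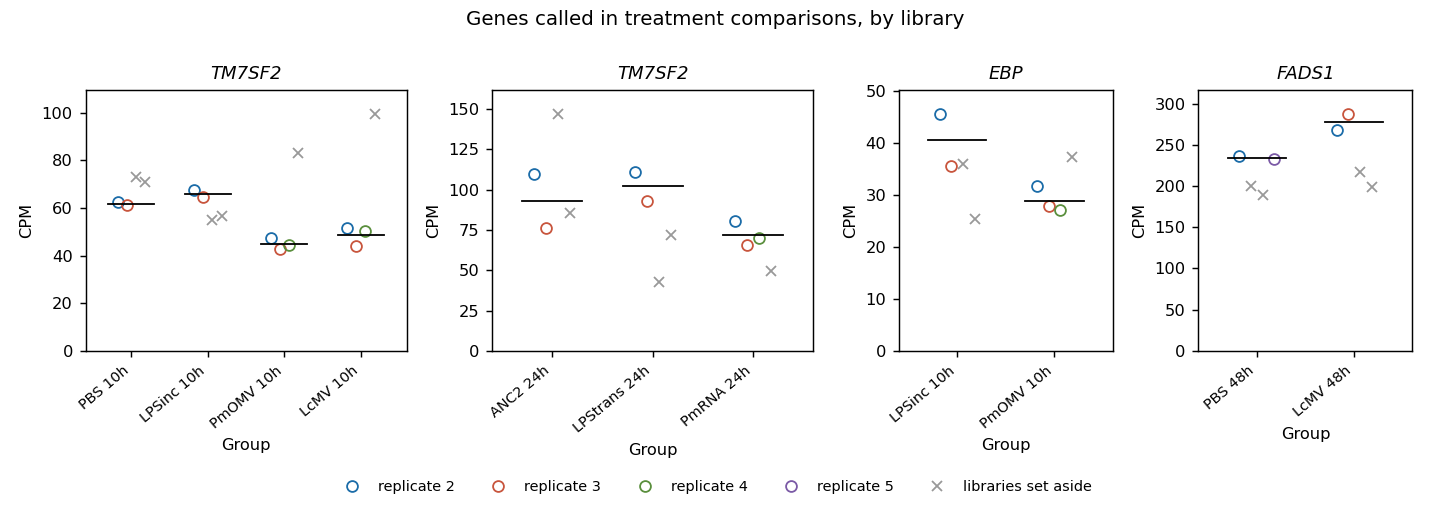
CPM per library of TM7SF2, EBP and FADS1 in the groups of the comparisons in which they passed the test, with lines for the mean of the libraries used and crosses for those set aside, on linear axes from 0. The 3 OMV libraries of TM7SF2 used lie between 42.9 and 47.3 CPM, below PBS and lipopolysaccharide, and the one set aside lies at 83.2 CPM.

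FADS1, the delta-5 desaturase, was the member that rose, after L. casei MVs at 48 h, where 2.75% of all genes passed. It stood at 268 and 288 CPM in the MV libraries and at 237 and 232 CPM in the PBS libraries. The groups did not overlap, and the log2 fold change was 0.29 ± 0.07 (adjusted p = 0.0196). The MV libraries carried replicate numbers 2 and 3 and the PBS libraries 2 and 5. At 48 h replicate 3 of FADS1 was the higher one also in ANC100 (269 against 237 CPM) and LcRNA (282 against 240.0 CPM), and with the block fitted within each time the log2 fold change was 0.14 (adjusted p = 0.437). Without the block it was 0.24 (adjusted p = 0.225). With all libraries FADS1 differed by 0.18 in both fits and did not pass (adjusted p = 1 and 0.998). FADS1 also lost the call without MV replicate 3 (0.23), without PBS replicate 2 (0.35) or 5 (0.22), when flow cell and lane were added as terms (0.22), with replicates 2 and 3 alone (0.24) and without the low-count filter (0.28, adjusted p = 0.0678).

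The other members leaned the same way in that comparison, with 28 of 31 above 0, a median of 0.25 and 16 at an unadjusted p under 0.05, where 16.3% of all genes were. EBP (0.41 ± 0.13, adjusted p = 0.0563), FDPS (0.46 ± 0.14, adjusted p = 0.0606) and ACACA (0.26 ± 0.08, adjusted p = 0.0695) were next. FDPS stood at 305 and 235 CPM after MVs and at 252 and 175 CPM in PBS, and EBP at 69.0 and 48.8 CPM after MVs and 52.8 and 41.5 CPM in PBS. Both pairs of groups overlapped. Without PBS replicate 2 the comparison held 7 members in place of FADS1, namely ACAT2, HMGCS1, FDPS, LSS, CYP51A1, NSDHL and STARD4. The change of the MV effect from 24 to 48 h was above 0 in 31 of 31 genes, with a median of 0.30. It was led by FADS1 (0.34 ± 0.11, adjusted p = 0.395), FDPS (0.61 ± 0.20, adjusted p = 0.452) and LSS (0.54 ± 0.19, adjusted p = 0.467), and none passed (0.0213% of all genes did). Both results rest on the same PBS libraries at 48 h. The siRNA control at 48 h, without bacterial material, also had 28 of 31 values above 0 against them. PBS replicate 5 had the lowest mean of the 31 genes (0.23, against 0.40 to 0.73 in the other 48 h libraries). The block held the replicate difference constant over time, but fitted within each time its median was -0.30 at 10 h and -0.10 at 48 h. Their part in the lean was not tested.

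In the other 16 comparisons with a control 0 of 31 members passed by edgeR. At 10 h the share of all genes that passed was 0.0373% for L. casei MVs and 0% for E. faecalis MVs, lipopolysaccharide in the medium, transfected lipopolysaccharide and the RNA of each of the 3 species. After E. faecalis MVs at 10 h the lowest p-values were those of CYP51A1 (0.32 ± 0.15), TM7SF2 and MSMO1 (0.21 ± 0.17). After L. casei MVs at 10 h FADS2 (-0.29 ± 0.12, adjusted p = 0.574) and ACACA (0.14 ± 0.08, adjusted p = 0.695) followed TM7SF2. With E. faecalis MV-RNA at 10 h SREBF2 (0.15 ± 0.07, adjusted p = 0.771), FADS2 (0.27 ± 0.13) and SREBF1 (0.17 ± 0.08) came first. L. casei MV-RNA at 10 h gave CYP51A1 (0.18 ± 0.10), SCAP (0.10 ± 0.06) and PMVK (0.21 ± 0.13). OMV-RNA at 10 h gave TM7SF2 (-0.27 ± 0.14), GGPS1 (0.45 ± 0.27) and HSD17B7 (0.27 ± 0.17), and transfected lipopolysaccharide at 10 h gave GGPS1 (0.66 ± 0.21), PMVK (0.17 ± 0.18) and ACAT2 (-0.11 ± 0.12). Each of these had an adjusted p of 1 unless stated, and GGPS1 and PMVK were the members with the fewest reads.

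At 24 h the share of all genes was 0.00533% for L. casei MVs, 0.112% for OMVs and 0% for E. faecalis MVs, lipopolysaccharide by either route and the RNA of each species. Set against PBS at that time, the arms in medium had medians below 0 in these genes, namely -0.07 for L. casei MVs, -0.14 for E. faecalis MVs, -0.12 for OMVs and -0.14 for lipopolysaccharide. They share the same 2 PBS libraries as control, and PBS replicate 2 had the highest mean of the members among all 24 h libraries (0.36). The part of that library in these medians was not tested. The lowest p-values belonged to TM7SF2 (-0.22 ± 0.10), ELOVL6 (-0.20 ± 0.14) and LSS (-0.19 ± 0.13) after L. casei MVs, and to PMVK (0.56 ± 0.20), FADS1 (-0.17 ± 0.08) and INSIG1 (-0.45 ± 0.20) after E. faecalis MVs. After OMVs they belonged to LSS (-0.26 ± 0.14), FDPS (-0.27 ± 0.14) and TM7SF2, and after lipopolysaccharide to ELOVL6 (-0.36 ± 0.14), LSS (-0.27 ± 0.13) and FADS1 (-0.14 ± 0.07). Each had an adjusted p of 1.

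Of the transfected arms at 24 h, L. casei MV-RNA gave CYP51A1 (-0.18 ± 0.14), EBP (-0.17 ± 0.13) and MVK (-0.14 ± 0.12), and E. faecalis MV-RNA gave SREBF1 (0.14 ± 0.08), FADS1 (-0.10 ± 0.07) and CYP51A1 (-0.15 ± 0.12). OMV-RNA gave TM7SF2, ACACA (0.17 ± 0.08, adjusted p = 0.739) and FASN (0.17 ± 0.12, adjusted p = 0.895), and lipopolysaccharide gave NSDHL (0.19 ± 0.13), TM7SF2 (0.14 ± 0.11) and HSD17B7 (0.17 ± 0.15). At 48 h L. casei MV-RNA against ANC100 (0% of all genes) gave CYP51A1 (0.25 ± 0.12), ELOVL6 (-0.26 ± 0.13) and PMVK (0.34 ± 0.18). The adjusted p was 1 where none is stated.

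Differences of effects between times were tested in 5 contrasts, and 0 of 155 member tests passed by edgeR, DESeq2 or voom, with 17 at an unadjusted p under 0.05, or 11.0%, against 5.79% over all genes. For transfection against medium, 0.0266% and 0% of all genes passed for 24 less 10 h and 48 less 24 h. The first was led by SCAP (0.12 ± 0.05, adjusted p = 0.571) and MVK (-0.17 ± 0.07, adjusted p = 0.6), and the second by MVK (0.31 ± 0.12), FADS2 (0.28 ± 0.12) and MVD (0.36 ± 0.16). For OMVs against PBS, 0.032% of all genes passed for 24 less 10 h, and FADS2 had the lowest p-value of the members (0.40 ± 0.17, adjusted p = 0.729). For L. casei MVs, 24 less 10 h gave 0% of all genes, with FDPS (-0.33 ± 0.20), FDFT1 (-0.28 ± 0.18) and ELOVL6 (-0.30 ± 0.20) first. STARD4 passed in the contrast of L. casei MVs from 24 to 48 h (0.82) when PBS replicate 2 at 48 h was left out.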

How the data were processed

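Ribosomal RNA-depleted total RNA of Caco-2 cells was sequenced in 105 libraries. Per the labels, reads were aligned to GRCh38 with STAR and counted per gene with featureCounts, and no strand setting is named. The authors deposited raw counts per gene, whole numbers without normalisation. Gene symbols came from a table of IDs, of which 62030 of 63241 matched exactly and 62666 without the version.

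Groups came from the labels alone. The 31 genes, the companion lists and the tests were chosen with earlier results of these data known, as was the setting aside of 39 libraries in lanes 2 to 4 of 1 flow cell. Those libraries were compared with the rest over the 1500 genes most variable within the rest. Low counts were filtered over all libraries with filterByExpr, which left 18775 genes. The 66 remaining libraries entered 1 fit of edgeR 4.0.16 in R 4.3.3 (TMM, quasi-likelihood F test, robust, residual df 35, biological coefficient of variation 0.0625), with a coefficient per group and the replicate number as an additive block. SE was taken as the size of the log2 fold change divided by the root of its F value. Calls are at a Benjamini-Hochberg adjusted p under 0.05 over all genes within a comparison, two-sided. CPM use 1e+06 as scale. Total counts of 632659 to 8558755 limit the precision of low genes.

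Same-numbered libraries deviated together from their group means. In the 21 contrasts with at least 2 shared numbers the correlations ran from 0.27 to 0.696 (median 0.482), all above 0.1, though only 1 contrast had more than 2 pairs. The labels do not say that replicates were separate cultures, so the spread behind the p-values is that of libraries and may be technical.

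All 31 genes are accounted for. In a comparison up to 10 of the highest and 10 of the lowest past the test are named (all of them for the comparisons of time), and where fewer than 3 passed, the 3 of lowest p as well. Of the companion lists up to 3 of the highest and 3 of the lowest past the test are named. A few genes of these lists are counted but not reported here by name. Alternatives were DESeq2 1.42.0, voom of limma 3.58.1, other scaling, filter, block and library choices, and leaving out single libraries. The fit was also run on simulated counts. These held no replicate effect and were drawn independently for each library, so the run cannot speak to the shared deviation of same-numbered libraries.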

Additional observations from a re-analysis of the deposited data

Results flagged for a closer look

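The replicate difference (replicate 3 against replicate 2, log2, fitted within each time) itself changed with time in 17 cases, each tested as a difference of differences with edgeR at an adjusted p under 0.05. These contrasts were chosen after the data had been seen, and they share the 24 h libraries. From 10 to 24 h the difference moved upwards in FDFT1 (0.14), SQLE (0.17), DHCR7 (0.23), SREBF2 (0.11), ACLY (0.15), ACACA (0.21) and FASN (0.32) and downwards in TM7SF2 (-0.19). For FASN the replicates stood 0.48 apart at 10 h, where replicate 2 ran from 1619 to 2018 CPM and replicate 3 from 1139 to 1482 CPM without overlap, and at 24 h the ranges of 1354 to 1577 CPM and 1222 to 1485 CPM overlapped.

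Between 24 and 48 h it moved upwards in HMGCS1 (0.26), IDI1 (0.38), FDFT1 (0.31), SQLE (0.20), MSMO1 (0.32), SC5D (0.35), INSIG1 (0.48), STARD4 (0.26) and FADS1 (0.16). FDFT1 and SQLE, which act one after the other on the way to the sterol ring, are the genes found in both steps. In FDFT1 at 48 h replicate 3 ran from 197 to 226 CPM, above the 142 to 179 CPM of replicate 2. SC5D, apart at 24 h (246 to 309 against 173 to 217 CPM), overlapped at 48 h (306 to 442 against 306 to 345 CPM). The 48 h values rest on 4 and 3 libraries. In the 2 groups of 4 libraries, ANC100 and LcRNA at 10 h, no library stood apart from the others in any of 62 tests of 1 gene in 1 group. Both groups hold replicates 2 to 5, and in the mean of the 31 genes replicate 2 lay near 5 and replicate 3 near 4. With such pairs the test could hardly flag a single library, so nothing is concluded from it. The smaller groups were not tested.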

How the results depend on the processing

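The count of members past the test was 27 from 10 to 24 h and ranged from 22 to 28 over the alternatives. It was 26 from 24 to 48 h, and 20 to 27 over the alternatives within the 66 libraries. With all libraries it was 4 with and 0 without the replicate block, and FASN then reversed, to -0.01102 without and -0.007414 with the block. The replicate count of 26 ranged from 25 to 27. Without the replicate block 24 members passed from 10 to 24 h, 20 from 24 to 48 h, 0 of the treatment tests and 0 of the tests against lipopolysaccharide. The 2 calls of the treatments became 0 with all libraries (both fits), 1 with flow cell and lane, 1 with replicates 2 and 3 alone, 4 without the low-count filter and 4 with voom. The 2 calls against lipopolysaccharide became 0 with all libraries (both fits), 6 with DESeq2, 7 with flow cell and lane, 5 without the filter, 9 with the block within each time, 4 with the robust option off and 4 with voom. The siRNA count at 48 h became 2 without the filter, and the count for transfection at 24 h became 1 with the block within each time. The cause of these changes was not tested.

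Leaving out 1 library at a time was run for 24 of the 66 libraries (those of PBS, LcMV, PmOMV and LPSinc, and of ANC100 at 48 h), with the dispersion trend held. The other libraries were not left out. The counts were 26 to 27 from 10 to 24 h, 23 to 27 from 24 to 48 h, 26 to 26 for replicate, 1 to 8 for treatments, 0 to 2 against lipopolysaccharide, 0 to 1 for differences of effects, 0 to 3 for siRNA at 48 h, and 0 to 0 for siRNA at 10 and 24 h and for transfection at each time. Of the single values, ACLY from 10 to 24 h passed narrowly and did not pass with voom, with flow cell and lane, with the robust option off or with replicates 2 and 3 alone.

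Over all genes, counts of calls moved by more than 1.5 times in these settings. From 10 to 24 h 10304 genes became 6193 with all libraries and no block. Between 24 and 48 h 8162 became 5343 without the block, 476 with all libraries and 1657 with those and the block. Over the 18 treatments 745 became 86 without the block, 3 and 6 with all libraries, 234 with replicates 2 and 3 and 1197 with the block within each time, and against lipopolysaccharide 626 became 42, 5, 6, 371 and 1584. For transfection at 10 h 78 became 2, 0, 0, 27 and 326 in the same order, with 130 by DESeq2 and 130 without the filter, and 154 with flow cell and lane. At 24 h 119 became 0, 0, 0, 30 and 513, with 246 with flow cell and lane. For siRNA at 48 h 53 became 9, 0, 0, 13 and 135, with 136 by DESeq2, 176 without the filter and 20 with flow cell and lane. For siRNA at 10 h the 0 genes became 35 by DESeq2, 21 with flow cell and lane and 17 without PBS replicate 3. At 24 h the 0 genes for siRNA became 43 with the block within each time and 14 without PBS replicate 3. For transfection at 48 h the 1 gene became 13 without the filter and 11 with the block within each time. Leaving out 1 library moved some of these counts as far. The count for siRNA at 48 h became 761 without ANC100 replicate 2 and 3 without ANC100 replicate 3 or PBS replicate 2, and that for transfection at 24 h became 18 without PBS replicate 2 and 25 without LcMV replicate 2, 48 and 58 without PmOMV replicates 2 and 3, 59 without LPSinc replicate 2 and 234 without PBS replicate 3. For transfection at 10 h it became 39 without PmOMV replicate 2, 35 without PBS replicate 2 and 52 without LPSinc replicate 2, and at 48 h the 1 gene became 27 without ANC100 replicate 2. Against lipopolysaccharide 626 became 223 and 222 without LPSinc replicates 2 and 3 at 10 h, 255 without PmOMV replicate 2 and 410 without PmOMV replicate 3. Over the treatments 745 became 453 and 364 without LcMV replicates 2 and 3 at 48 h and 371 and 428 without PBS replicates 2 and 5 at 48 h. Groups of 2 libraries and low totals limit what the single treatments can show.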
